A study of Homo sapiens with 12 samples.

Results

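MX1, MX2, GBP1, GBP2, GBP3, GBP4 and GBP5 are the members of 2 families of interferon-induced large GTPases that were examined here in IMR90 cells. They were chosen by gene symbol, and all 7 were among the 16383 genes of the deposited table. GBP6 and GBP7 were not analysed here. After a filter on low values (a mean of at least 10 normalized counts over all libraries), 5 of the 7 members were tested along with the rest of 11242 genes. GBP4 and GBP5 fell below it and are described by their reads.

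IMR90 is an established line of human lung fibroblasts, labelled wild type, and every sample came from this 1 line. RNA with a poly(A) tail was sequenced in 4 groups of 3 samples. Proliferating cells had no treatment. The other groups had received 20 Gy of ionizing radiation over 10 min, which drives fibroblasts into senescence, a lasting arrest of division, and were collected on day 11. They had been given DMSO (the solvent control), 2 µM palbociclib, which blocks the cell cycle kinases CDK4 and CDK6, or 2 µM ruxolitinib, which blocks the Janus kinases JAK1 and JAK2. Both inhibitors were added on days 4, 6, 8 and 10. Proliferating and irradiated DMSO cells thus differed in radiation, solvent and growth state at once, and these cannot be told apart. The labels do not say that replicates came from separate cultures, so the p-values measure the spread between these samples, which may be technical.

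MX and GBP proteins are large GTPases related to dynamin that form oligomers and act inside the cell against pathogens. MX1 is a cytoplasmic inhibitor of influenza and other RNA viruses, and MX2 sits at the nuclear envelope and restricts HIV. GBPs, the guanylate-binding proteins, coat bacteria and pathogen vacuoles, and several of them feed into inflammasomes, the complexes that activate inflammatory caspases. Type I interferon signals through JAK1 and TYK2 to a complex containing STAT2 and IRF9 that binds the interferon-stimulated response element (ISRE). Interferon gamma signals through JAK1 and JAK2 to the gamma-activated site (GAS) of its target genes, among them the factor IRF1. MX genes are classical type I interferon targets, whereas GBP genes answer to interferon gamma as well.

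The members lie in 2 clusters of neighbouring genes (GRCh38, GENCODE annotation). MX2, chr21:41361999-41409393, and MX1, chr21:41420020-41470071, lie on the plus strand with 10.6 kb between them. The 5 GBP genes lie on the minus strand of chromosome 1 within 266.2 kb. They are GBP3, chr1:89006679-89022894, GBP1, chr1:89051882-89065360, GBP2, chr1:89106132-89150456, GBP4, chr1:89181144-89198942, and GBP5, chr1:89256189-89272860.

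Promoters of 300 bases (250 before to 50 after the start) were available for 4 of the 7 members, MX1, GBP1, GBP3 and GBP4, in RefSeq on GRCh38.p14. MX2, GBP2 and GBP5 are named only. Each of the 4 genes held the ISRE core (GAAA, any 2 bases, GAAA) on one of its strands in at least 1 promoter. Counted per promoter, 3.57% of 35116 RefSeq promoters of that length held it (1255 promoters). MX1 had 3 promoters, and the one at its second start held no core. The stretches below are shown because GBP1 and GBP3, whose levels parted in these samples, hold the same 10 letters at different distances from the start. Each is written 5′ to 3′ along the gene with the core, or its reverse complement, in capitals.
GBP1: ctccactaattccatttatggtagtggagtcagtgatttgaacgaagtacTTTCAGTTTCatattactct
GBP3: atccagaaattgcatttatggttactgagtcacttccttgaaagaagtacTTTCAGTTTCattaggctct
GBP4: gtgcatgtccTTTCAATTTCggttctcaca
MX1: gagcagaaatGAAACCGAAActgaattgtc
The GBP1 stretch, chr1:89065316-89065385 on the minus strand, has the core at positions -127 to -118, counted from 1 at the start with no 0. The GBP3 stretch, chr1:89022845-89022914 on the minus strand, has it at 3 to 12. Set side by side on the core, 53 of their 70 bases were identical (75.7%). The GBP4 stretch, chr1:89198927-89198956 on the minus strand, spans the start, with the core at -4 to 6. The MX1 stretch, chr21:41420559-41420588 on the plus strand, follows the first of 3 annotated starts, with the core at 12 to 21. There it was part of the longer form that ends on CT, which 0.273% of promoters held. The GAS letters TTCNNNGAA, held by 7.66% of promoters on either strand, were found at -15 to -7 in GBP3 and at -189 to -181 from the last of the 3 MX1 starts. In that MX1 promoter they overlapped another ISRE core at -196 to -187. Only this strict form of the GAS was searched. GBP1 and GBP4 had no match to it, which does not show that they lack a site of looser form. A match of letters is a description of the sequence and not a binding site.

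Each library held 14106799 to 21762412 recovered reads, and every pair of replicates differed by more than counting noise. All 9 fibroblast markers were present, and their summed level was 351101 to 752663 normalized counts per library. Epithelial markers summed to 53.3 to 110 and endothelial markers to 1681 to 4380, nearly all of the latter from TEK. The 6 immune cell markers summed to 9.98 to 17.1 in proliferating cells, 58.0 to 70.3 in the DMSO group, 27.5 to 28.5 under palbociclib and 52.3 to 63.9 under ruxolitinib. The pan-leukocyte gene PTPRC stayed below 10 in every library. The part of these low marker levels in the results below was not tested. Libraries A126 (proliferating), A119 and A120 (palbociclib) lay apart from their groups on the fourth principal component, which held 3.00% of the variance. Without these 3 libraries, every member kept its direction wherever it was called, and no member gained or lost a call. Scaling every library to the same total would shift the log2 difference of the median gene by 0.23 for DMSO against proliferating cells and by -0.23 for palbociclib against DMSO.

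Irradiated cells with DMSO held far more MX1 and MX2 RNA than proliferating cells, more GBP3 and traces of GBP4 and GBP5, while GBP1 did not pass the test and GBP2 fell. Of the 5 tested members, 3 were higher and 1 was lower in DMSO than in proliferating cells (limma, adjusted p under 0.05). Among all tested genes 33.0% were higher and 39.3% lower in this comparison, 72.4% in all. The median log2 difference was 1.38 for the 5 members and -0.05 for all tested genes. In these bulk samples, fewer cells that express a gene and less RNA per cell cannot be told apart.

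**Figure D1:**
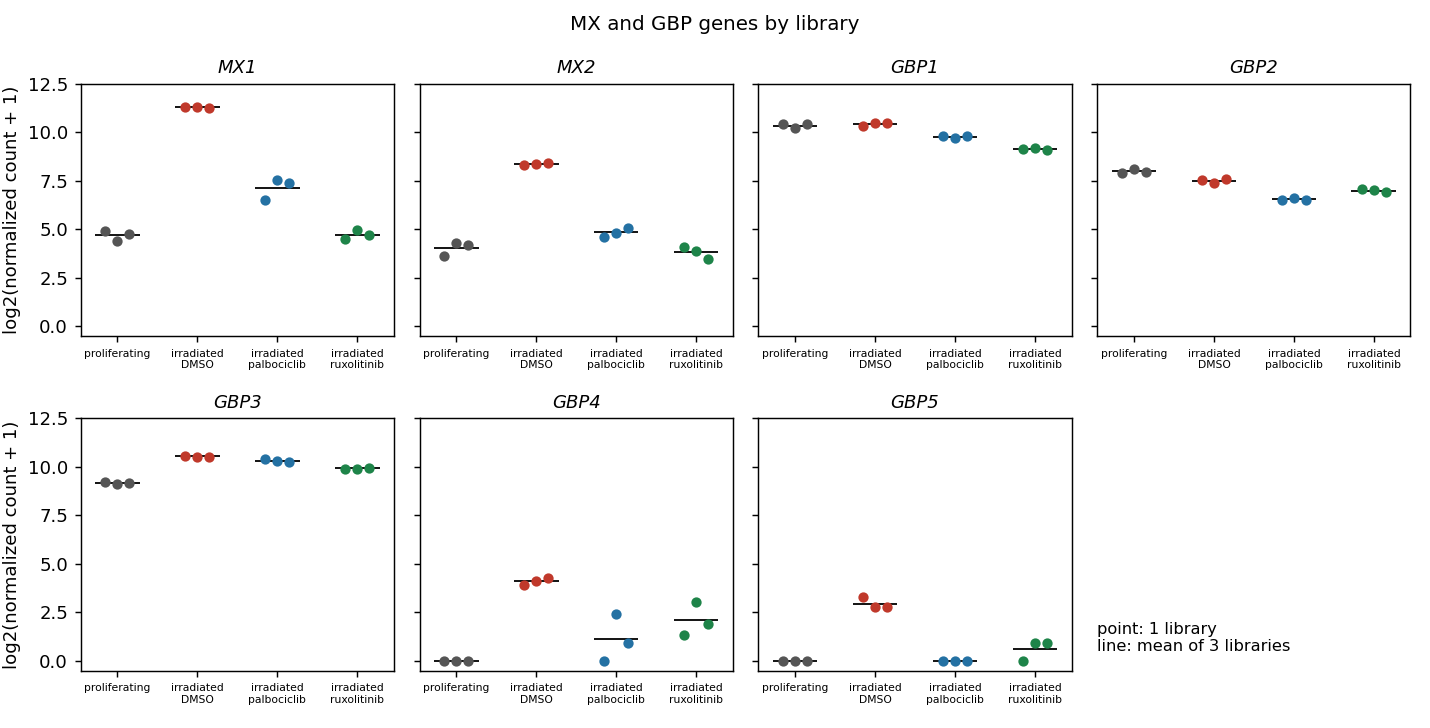
Normalized counts of the 7 genes in each of the 12 libraries on a log2(normalized count + 1) axis, 3 points per group with a bar at the group mean. MX1 and MX2 are highest in the DMSO group, GBP1 is lowest with ruxolitinib and GBP2 lowest with palbociclib, and GBP4 and GBP5 are at 0 in every proliferating library.

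MX1 was the member that moved most. Its levels were 29.1, 20.0 and 25.7 normalized counts in proliferating cells and 2495, 2507 and 2428 in irradiated cells with DMSO. With palbociclib they were 90.7, 185.0 and 164.3, and with ruxolitinib 21.6, 29.7 and 25.3. The DMSO libraries stood far above all others, the palbociclib libraries lay between, and the ruxolitinib libraries overlapped the proliferating ones. The group means were 24.9 ± 4.60 (SD, n = 3), 2477 ± 42.6 with DMSO, 146.7 ± 49.5 with palbociclib and 25.5 ± 4.06 with ruxolitinib. MX1 rose 99.4-fold with irradiation, a log2 difference of 6.60 (SE 0.21, limma adjusted p = 4.00e-13). It was 16.9-fold lower with palbociclib than with DMSO, a log2 difference of -4.13 (adjusted p = 6.99e-10). It was 97.0-fold lower with ruxolitinib, a log2 difference of -6.56 (adjusted p = 1.72e-11). The lowest palbociclib library was A119, and the log2 difference to DMSO without it was -3.82.

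MX2 followed the same course at a lower level. Its normalized counts were 11.4, 18.9 and 17.1 in proliferating cells and 314.8, 332.7 and 335.3 with DMSO. They were 23.2, 27.4 and 32.9 with palbociclib and 16.2, 13.5 and 9.93 with ruxolitinib. Again the DMSO libraries stood alone at the top, palbociclib libraries lay just above both remaining groups, and those 2 groups overlapped. MX2 rose 20.7-fold with irradiation, a log2 difference of 4.32 (SE 0.23, adjusted p = 1.15e-10). It was 11.8-fold lower with palbociclib (log2 difference -3.52, adjusted p = 8.22e-09) and 24.8-fold lower with ruxolitinib (-4.56, adjusted p = 1.25e-09) than with DMSO. The values of MX1 and MX2 across the 12 libraries had a Pearson correlation of 0.97 on the log2 scale. Those libraries form 4 groups, so this describes group differences more than separate samples.

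GBP1, which binds bacterial lipopolysaccharide and starts the GBP coat on bacteria, was already high before irradiation. It held 1350, 1184 and 1347 normalized counts in proliferating cells and 1290, 1435 and 1403 with DMSO. These groups overlapped, and the log2 difference of 0.09 did not pass the test (95% interval up to 0.23, adjusted p = 0.230). With the same total in every library the difference was 0.32 (adjusted p = 0.000225), with the same upper quartile 0.25 (0.00225) and in edgeR 0.15 (0.0407), so that GBP1 was called higher in these 3 settings. With palbociclib its values were 893.1, 828.7 and 880.3 and with ruxolitinib 557.8, 571.8 and 545.9. Every library with an inhibitor lay below every proliferating library, those with ruxolitinib lowest. GBP1 was 1.59-fold lower with palbociclib than with DMSO (log2 difference -0.66, SE 0.07, adjusted p = 9.65e-07) and 2.46-fold lower with ruxolitinib (-1.30, adjusted p = 1.41e-09). Ruxolitinib left it at 43.2% of the proliferating mean and palbociclib at 67.0%.

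GBP2, which carries a lipid anchor and helps to build the coat that GBP1 starts, fell with irradiation. Its values were 235.5, 273.9 and 244.7 normalized counts in proliferating cells and 184.1, 164.6 and 188.5 with DMSO. They were 89.6, 96.3 and 88.8 with palbociclib and 131.2, 128.8 and 119.1 with ruxolitinib. The 4 groups did not overlap, and here the palbociclib libraries were the lowest. GBP2 was 1.40-fold lower with DMSO than in proliferating cells (log2 difference -0.49, SE 0.10, adjusted p = 0.000488). It was 1.95-fold lower with palbociclib than with DMSO (-0.96, adjusted p = 2.12e-06) and 1.42-fold lower with ruxolitinib (-0.50, adjusted p = 0.00896). The call for ruxolitinib was lost without DMSO library A118 (-0.46, adjusted p = 0.0542) or ruxolitinib library A124 (-0.46, adjusted p = 0.0551). GBP2 shares 621 exonic bases with GBP7 on the same strand, 8.60% of its annotated exons, so some of its reads could have been assigned differently.

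GBP3, the closest relative of GBP1 in this cluster, rose and stayed raised. It held 604.9, 547.9 and 565.6 normalized counts in proliferating cells and 1528, 1479 and 1460 with DMSO. With palbociclib its values were 1336, 1252 and 1239 and with ruxolitinib 949.0, 960.8 and 995.3. The groups formed 4 separate steps, highest with DMSO and lowest in proliferating cells. GBP3 rose 2.60-fold with irradiation (log2 difference 1.38, SE 0.06, adjusted p = 6.70e-12). It was 1.17-fold lower with palbociclib than with DMSO (-0.22, adjusted p = 0.00461) and 1.54-fold lower with ruxolitinib (-0.62, adjusted p = 2.65e-06). GBP1 and GBP3 also differ in how unique their reads are. Of the 50-base words of the GBP1 transcript, 14.0% recur in other genes, mostly the pseudogene GBP1P1 (11.4%), with 3.28% in GBP3, and 4.18% of GBP3 words recur elsewhere.

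GBP4 and GBP5, inducible members of the family of which GBP5 promotes the NLRP3 inflammasome, were close to the limit of detection. GBP4 had no read in the 3 proliferating libraries. With DMSO it had 13.9, 16.6 and 18.5 normalized counts, from 44 reads in all. It had 0, 4.38 and 0.888 with palbociclib (5 reads) and 1.54, 7.20 and 2.71 with ruxolitinib (13 reads). All 3 DMSO libraries lay above every other library. Against a floor of 3 reads per library, GBP4 was at least 5.26-fold higher with DMSO than in proliferating cells. Pooling the reads of a group over its summed depth, the ratio of DMSO to palbociclib was 9.52 (95% interval 3.79 to 30.8) and that of DMSO to ruxolitinib 4.37 (2.31 to 8.85), where the exact intervals cover counting error only.

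GBP5 was lower still. It had no read in any proliferating or palbociclib library and 8.91, 5.92 and 5.78 normalized counts with DMSO (19 reads). With ruxolitinib it had 0, 0.900 and 0.902, from 2 reads. The DMSO libraries again lay above all others. GBP5 was at least 2.22-fold higher with DMSO than in proliferating or palbociclib cells, and the ratio of pooled reads of DMSO to ruxolitinib was 12.3 (95% interval 2.96 to 109). In a limma fit without the filter on low values, the adjusted p for DMSO against proliferating cells was 9.25e-06 for GBP4 and 3.21e-06 for GBP5. In edgeR on the reads without the filter it was 3.04e-05 for GBP4 and 0.000809 for GBP5. Between DMSO and ruxolitinib the adjusted p for GBP4 was 0.0640 in the limma fit without the filter. It was 0.00362 in a limma fit of only these 2 groups, so its call depends on the fit.

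The inhibitors were compared with DMSO through the same 3 DMSO libraries, so the 2 sets of differences are not independent. All 5 tested members were lower with palbociclib than with DMSO, where 22.3% of all tested genes were lower and 26.0% higher, 48.3% in all. All 5 were also lower with ruxolitinib, where 3.42% of all tested genes were lower and 1.10% higher, 4.52% in all. The members' median log2 difference was -0.96 with palbociclib and -1.30 with ruxolitinib, beside medians over all tested genes of 0.02 and -0.00. The member counts held without the 3 libraries that lay apart. Over all tested genes, ruxolitinib against DMSO then gave 738 higher and 924 lower genes, instead of 124 and 384.

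**Figure D2:**
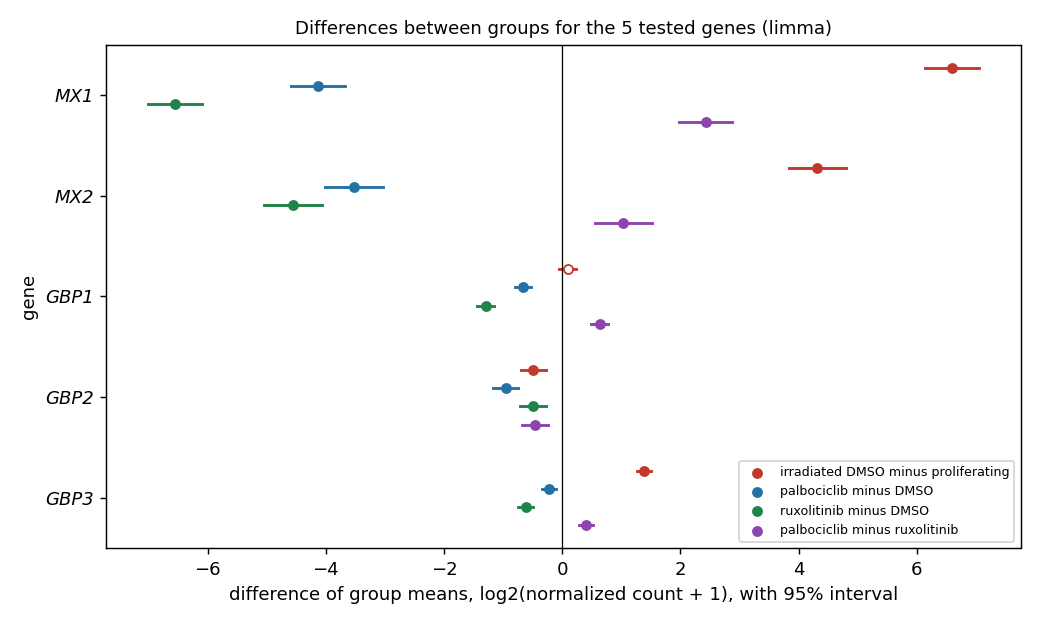
Differences of group means on the log2(normalized count + 1) scale for the 5 tested genes with 95% intervals from limma, coloured by comparison, open where the adjusted p was 0.05 or more. MX1 and MX2 have the longest shifts, GBP1 with irradiation is the open point, and GBP2 is the gene whose purple point (palbociclib minus ruxolitinib) lies left of 0.

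Tested directly against each other at the same dose and days, the inhibitors differed for all 5 members. Levels were higher with palbociclib than with ruxolitinib for 4 of them and lower for 1, GBP2. Over all tested genes 22.8% were higher and 17.6% lower in this comparison, 40.4% in all. MX1 was 5.75-fold higher with palbociclib (log2 difference 2.42, adjusted p = 3.83e-07) and MX2 2.11-fold higher (1.03, adjusted p = 0.00205). GBP1 was 1.55-fold higher (0.63, adjusted p = 2.17e-06), and GBP3 differed by 0.40 on the log2 scale (adjusted p = 5.53e-05). GBP2 was lower with palbociclib by a log2 difference of -0.46 (adjusted p = 0.00218). Without the libraries that lay apart, the counts of 4 higher and 1 lower were the same.

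Set against proliferating cells, the members did not all end at the same place. With ruxolitinib, MX1 (log2 difference 0.04, 95% interval up to 0.49, adjusted p = 0.880) and MX2 (-0.24, up to 0.25, adjusted p = 0.358) did not differ from proliferating cells by the test. GBP1 was 2.32-fold below the proliferating level (log2 difference -1.21, adjusted p = 1.61e-10), GBP2 1.99-fold below it (-0.99, adjusted p = 3.36e-07) and GBP3 1.69-fold above it (0.76, adjusted p = 7.84e-09). In this comparison 1 member was thus higher and 2 were lower, and over all tested genes 32.6% were higher and 39.5% lower, 72.2% in all. With palbociclib, MX1, MX2 and GBP3 were 5.89-fold, 1.76-fold and 2.23-fold above proliferating cells (adjusted p = 3.81e-08, 0.00524 and 4.04e-11). GBP1 and GBP2 were below them by log2 differences of -0.57 and -1.44 (adjusted p = 9.33e-07 and 3.20e-09). These 3 higher and 2 lower calls stand beside 35.2% and 38.6% of all tested genes, 73.8% in all.

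**Figure D3:**
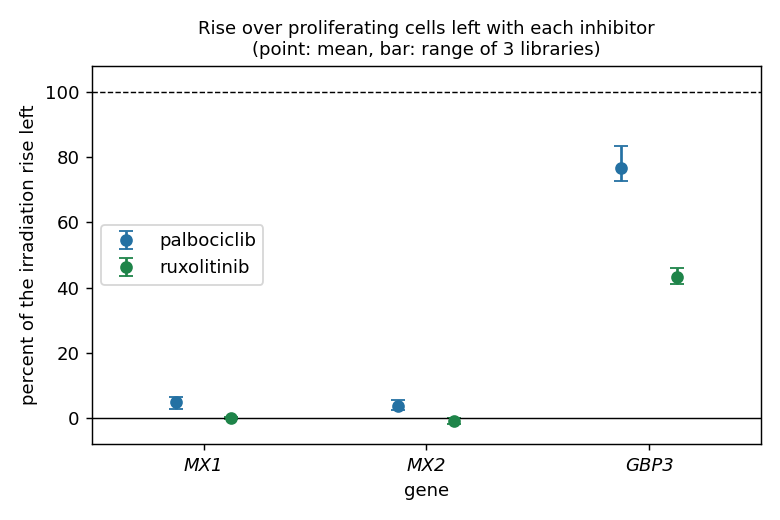
Percent of the irradiation rise (mean DMSO level minus mean proliferating level, normalized counts) that was left with each inhibitor, for MX1, MX2 and GBP3, with the mean as a point and the range of 3 libraries as a bar. In the deposited scaling MX1 and MX2 lie close to 0 with both inhibitors, and GBP3 keeps 76.7% with palbociclib and 43.2% with ruxolitinib.

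The 3 genes that rose kept unequal shares of that rise. With palbociclib 4.97% of the MX1 rise was left (2.68% to 6.53% over the libraries) and 3.86% of the MX2 rise (2.39% to 5.47%). For GBP3 it was 76.7% (72.7% to 83.3%). With ruxolitinib the shares were 0.0252% for MX1 (-0.135% to 0.196%), -0.831% for MX2 (-1.88% to 0.128%) and 43.2% for GBP3 (41.1% to 46.1%). The ranges of GBP3 did not overlap those of the MX genes under either inhibitor. No test was made of these shares, and they rest on the deposited scaling. Over 23 alternatives the GBP3 log2 difference of palbociclib against DMSO ran from -0.45 to -0.20. That of palbociclib against ruxolitinib ran from 0.20 to 0.42, and that of ruxolitinib against DMSO from -0.65 to -0.60.

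Ratios of reads within 1 library do not depend on how libraries are scaled. There were 0.443 ± 0.0218 (SD, n = 3) reads of GBP3 for each read of GBP1 in proliferating cells. The ratio was 1.09 ± 0.0862 in the DMSO group, 1.47 ± 0.0558 under palbociclib and 1.73 ± 0.0771 under ruxolitinib. GBP3 thus had fewer reads than GBP1 in proliferating cells and more in every irradiated library, and the 4 groups did not overlap. For GBP2 to GBP1 the ratios were 0.196 ± 0.0309, 0.131 ± 0.0144, 0.106 ± 0.00902 and 0.226 ± 0.00852 in the same order. For MX1 to MX2 they were 1.70 ± 0.764, 7.57 ± 0.344, 5.22 ± 1.44 and 2.03 ± 0.624. MX1 therefore gained on MX2 in irradiated cells with DMSO, and the ruxolitinib ratios overlapped the proliferating ones. Of 12 two-sided exact permutation tests on these ratios, 11 gave p = 0.1 (Benjamini-Hochberg adjusted 0.109), the smallest that 3 libraries against 3 allow. The other, GBP2 to GBP1 with palbociclib against DMSO, gave p = 0.2 in the same exact permutation test.

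**Figure D4:**
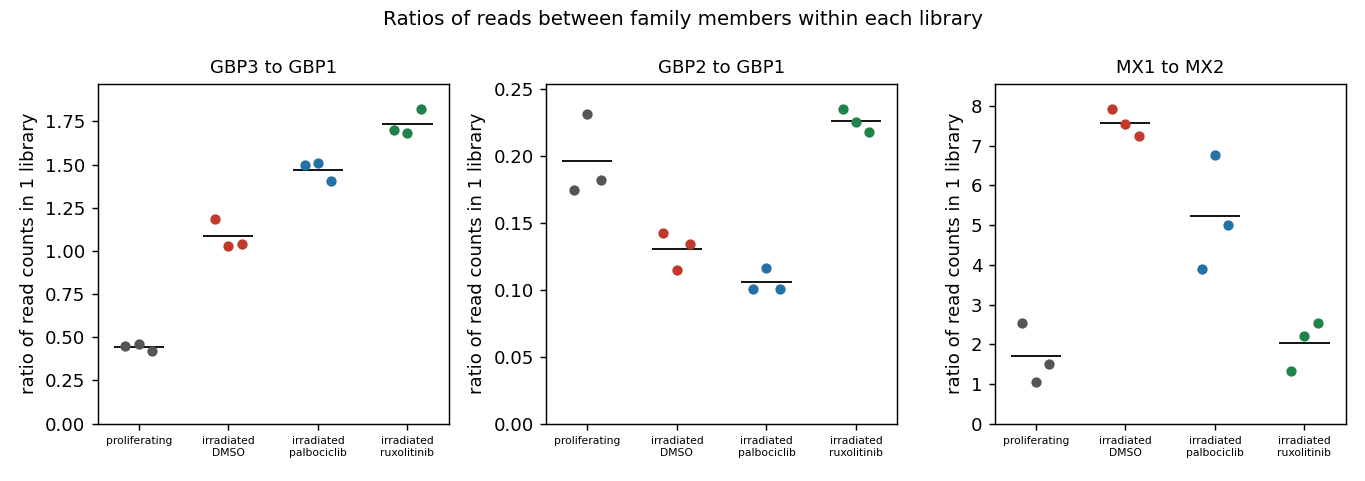
Ratios of read counts of GBP3 to GBP1, GBP2 to GBP1 and MX1 to MX2 within each library on linear axes from 0, 3 points per group with a bar at the mean. The GBP3 to GBP1 ratio climbs in 4 separate steps from 0.443 to 1.73, and the MX1 to MX2 ratio is highest with DMSO at 7.57.

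Levels of different members can be compared once divided by transcript length. Per kb of the canonical GENCODE transcript, proliferating cells ranked GBP1 (449 normalized counts per kb), GBP3 (189), GBP2 (61.5), MX1 (8.97) and MX2 (4.64), with no reads of GBP4 or GBP5. With DMSO the order was MX1 (892), GBP3 (490), GBP1 (477), MX2 (96.1), GBP2 (43.8), GBP4 (2.66) and GBP5 (1.01). MX1 thus went from the fourth place to the first, and the libraries of GBP3 (481 to 503) and GBP1 (447 to 498) overlapped. With palbociclib the order was GBP3 (420), GBP1 (301), MX1 (52.8), GBP2 (22.4) and MX2 (8.16). With ruxolitinib it was GBP3 (319), GBP1 (194), GBP2 (30.9), MX1 (9.20) and MX2 (3.88). Parts of this order depend on the length used. Per kb of all annotated exons, MX1 with DMSO was 138, below GBP3 (348) and GBP1 (225), and MX2 (22.5) fell below GBP2 (24.8). On that scale MX1 with palbociclib (8.16) also lay below GBP2 (12.7).

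The genes whose log2 values were most like each member over the 12 libraries differed between the members. For MX1 they included IFI6 (Pearson r = 0.99), an interferon-induced mitochondrial protein, and IRF9 (0.99). For MX2 they were IRF9 (0.99), UBA7 (0.98), the activating enzyme for ISG15, and SAMHD1 (0.98), which depletes nucleotides in virus-infected cells. IRF9, a subunit of the ISRE-binding complex, averaged 355.3 normalized counts in proliferating cells, against 1549 in the DMSO group, 515.2 under palbociclib and 301.9 under ruxolitinib.

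GBP1 was most like C1R (0.97), a complement protease, APOL6 (0.96) and KLF10 (0.95). C1R had means of 2128, 1931, 1177 and 716.3 normalized counts in the same order, so its mean, like that of GBP1, was lowest with ruxolitinib. GBP2 was most like SLC43A3 (0.98), LHFPL2 (0.97) and MDK (0.97), and SLC43A3 means were 986.1, 417.6, 153.8 and 260.1. GBP3 was most like ACVR1B (0.98), STAT3 (0.97) and TGM2 (0.97), and TGM2 means were 1786, 6195, 5039 and 4490. Between the members, r was -0.05 for GBP1 with GBP3, 0.64 for GBP1 with GBP2, -0.60 for GBP2 with GBP3 and 0.79 for MX1 with GBP3. These coefficients describe 12 libraries in 4 groups and carry no test.

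Upstream of the members, interferon ligands had few reads. Of 5 listed ligands 4 were in the table and none passed the filter on low values. IFNB1, interferon beta, had 0 reads in the 3 proliferating libraries and 3 reads in each DMSO library. It had 0, 1 and 0 reads with palbociclib and 2, 3 and 0 with ruxolitinib, so no library rose above the floor of 3 reads. IFNA1, 1 of a family of near-identical interferon alpha genes whose reads are hard to assign, had more. It had 3, 5 and 0 reads in proliferating cells, 8, 12 and 15 with DMSO, 13, 7 and 10 with palbociclib and 20, 13 and 14 with ruxolitinib. Every irradiated library lay above every proliferating one, and the irradiated groups overlapped. IFNA1 passed the filter with the same total in every library, where it was called higher with DMSO than in proliferating cells (log2 difference 2.34, adjusted p = 0.00153), and with the same upper quartile (2.27, adjusted p = 0.00194). In neither scaling was it called with an inhibitor against DMSO. Of 5 receptor subunits, 3 were higher with DMSO than in proliferating cells and none lower, beside 33.0% and 39.3% of all tested genes. IFNGR1, a subunit of the interferon gamma receptor, changed by 0.63 on the log2 scale (adjusted p = 3.63e-07), IL10RB by 0.49 (6.09e-06) and IFNAR1 by 0.28 (0.000288).

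JAK1, the kinase shared by both interferon pathways, averaged 5461 normalized counts in proliferating cells, against 4659 in the DMSO group, 4596 under palbociclib and 4666 under ruxolitinib. It was called lower with DMSO (log2 difference -0.23, adjusted p = 0.00837), but not with the same total (0.00, adjusted p = 0.965) or the same upper quartile (-0.07, adjusted p = 0.367) in every library. Of the 3 Janus kinase genes tested, none was called with palbociclib (48.3% of all tested genes) or ruxolitinib (4.52%) against DMSO. With the same total in every library, all 3 were called lower with palbociclib.

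**Figure D5:**
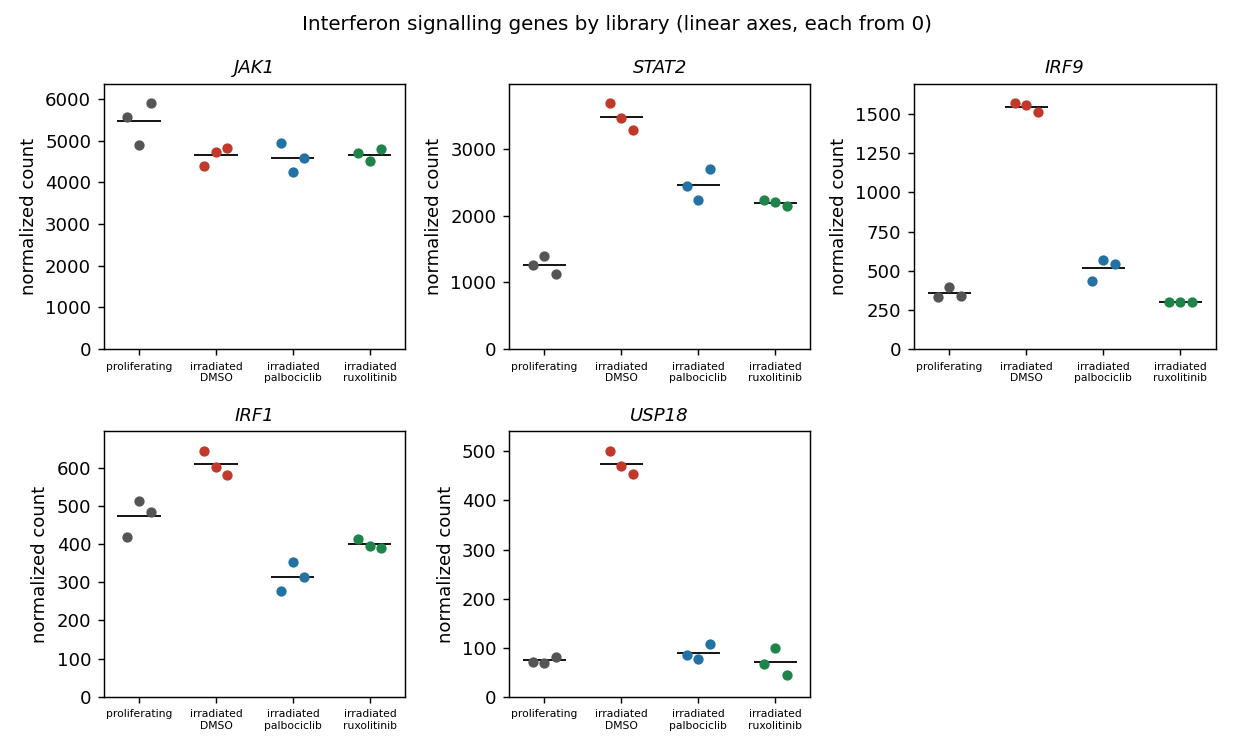
Normalized counts of JAK1, STAT2, IRF9, IRF1 and USP18 in each library on linear axes from 0, 3 points per group with a bar at the mean. IRF9 and USP18 are highest in the DMSO group, STAT2 stays above proliferating cells with both inhibitors, and IRF1 is lowest with palbociclib.

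IRF9, the DNA-binding subunit of the ISRE complex, rose with irradiation and was lower with both inhibitors than with DMSO. Its log2 differences were 2.13 with irradiation (adjusted p = 1.23e-11), -1.60 with palbociclib (2.51e-09) and -2.36 with ruxolitinib (1.15e-10) against DMSO. IRF9 was higher with palbociclib than with ruxolitinib by 0.76 (adjusted p = 1.12e-05), the order seen for MX1, MX2, GBP1 and GBP3.

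STAT2 and IRF1 had other patterns. STAT2 means were 1259, 3485, 2462 and 2198, and it did not pass between the inhibitors (log2 difference 0.16, 95% interval -0.01 to 0.33, adjusted p = 0.117). IRF1, a factor of the gamma interferon response, had means of 472.8, 609.5, 314.7 and 399.9. It rose by 0.37 with irradiation (adjusted p = 0.00240), where GBP2 fell. IRF1 was lower with palbociclib than with ruxolitinib by a log2 difference of -0.35 (adjusted p = 0.00792), the order seen for GBP2. Whether IRF9 or IRF1 sets the level of any member was not tested. Of the 5 interferon transcription factors read here, 3 were higher and 1 was lower with DMSO than in proliferating cells (3 and 0 with the same total in every library). Against DMSO, 4 were lower with palbociclib and 3 with ruxolitinib, and none was higher. Over all tested genes 33.0% were higher and 39.3% lower with DMSO than in proliferating cells. Against DMSO 22.3% of them were lower with palbociclib and 3.42% with ruxolitinib.

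USP18, a brake on the type I interferon receptor that is itself interferon-induced, had means of 73.8, 474.7, 89.8 and 69.9. It rose by 2.67 on the log2 scale with irradiation (adjusted p = 1.54e-08) and fell with both inhibitors, by 2.40 with palbociclib (2.93e-07) and by 2.82 with ruxolitinib (2.15e-07). Of 5 listed brakes, 1 was higher and 4 were lower with DMSO than in proliferating cells, beside 33.0% and 39.3% of all tested genes. With the same total in every library 2 of those 4 were called lower. SOCS1, an inhibitor of Janus kinases, was among the lower ones, with 206.5 normalized counts in proliferating cells and 49.0 with DMSO (log2 difference -2.06, adjusted p = 3.62e-08).

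Other interferon-induced antiviral genes, 22 of 23 listed and tested, gave the widest view of the pathway. All 22 rose with irradiation, with a median log2 difference of 4.13, beside -0.05 over all tested genes, of which 33.0% were higher. All 22 were lower with each inhibitor, with medians of -3.54 with palbociclib and -3.42 with ruxolitinib. Over all tested genes 22.3% and 3.42% were lower. RSAD2, with group means of 0, 215.3, 8.52 and 9.05, passed the filter on low values through the DMSO group alone. OAS1, BST2 and IFI44L also depended on that group to pass. For such genes the direction of these changes was partly set by the filter. MX1 and MX2 changed in the same directions. With irradiation GBP2 instead fell (log2 difference -0.49), GBP1 did not pass the test and GBP3 rose by less than the median (1.38). With each inhibitor GBP1, GBP2 and GBP3 were lower than with DMSO by less than these medians. Small differences were not particular to the GBP genes. TRIM22, among the 22, had means of 1732 normalized counts with DMSO, 1180 with palbociclib and 1334 with ruxolitinib. The medians were the same with genes at 3 reads or fewer in a group set to 3 reads. Between the inhibitors, 11 of the 22 were higher and 5 lower with palbociclib, beside 22.8% and 17.6% of all tested genes. IFI6 was among the higher ones (864.1 against 104.9 normalized counts, log2 difference 2.92, adjusted p = 1.41e-07), as MX1 was. HERC5, the ligase for ISG15, was among the lower ones (7.37 against 55.5, log2 difference -2.78, adjusted p = 1.24e-05).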

How the data were processed

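Poly(A) RNA was sequenced in 12 samples, 4 groups of 3. The authors deposited 1 table of normalized counts per gene, a signal that is never negative. The submitters' processing notes name Trimmomatic 0.38.1, HISAT2 2.2.1, featureCounts 2.0.3 and DESeq2 2.11.40.8 and the build GRCh38, without their order. The annotation and the use of strand are not given in the sources used here. MX1, GBP4 and GBP5 overlap exons of opposite-strand genes (at most 3.13% of their exons with any 1 gene), whose reads cannot be told apart without strand. Each deposited value was a whole number of reads divided by 1 factor per library, for 160380 of 160380 values above 0 (tolerance 0.01). The reads recovered from them served the count tests and the counts of low genes. Columns are named by group and by a library number (A116 to A127), and they were matched to groups, not to replicates.

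Log2(normalized count + 1) values, a scale that understates changes of low genes, were tested with limma 3.58.1 (R 4.3.3), with 4 group means over all 12 libraries and a variance trend. Genes with a mean of at least 10 were tested, p-values were Benjamini-Hochberg adjusted over all 11242, and those under 0.05 were called. Adjusted p-values without another tool beside them come from limma. Folds are ratios of group means of normalized counts. Ratios of GBP4 and GBP5 with a counting interval are instead ratios of each group's pooled reads divided by the sum of these factors over its libraries. Where a group had no read in any library, a fold is a lower bound against 3 reads per library. The members and gene lists were chosen with earlier results of these data known. All 7 members, IFNB1, JAK1, STAT2, IRF9, IRF1 and USP18 were always named, along with 3 like genes per tested member and up to 3 called genes of the largest difference per list and comparison; 1 further gene that this rule names is not reported here. The values of IFNA1 and the printed levels of C1R, SLC43A3, TGM2 and TRIM22 were picked after their values were seen. So were the listed genes printed from among those up to 3. On simulated data for palbociclib against DMSO (11242 genes), 194 of 200 changed genes were called, and 6 others. The simulation gave every gene and library the same extra spread. The real palbociclib libraries differed more from each other than the DMSO libraries did, so these counts need not hold for them. Alternatives were other pseudocounts, filters and scalings, limma with no trend, fits of the compared groups alone, each library left out in turn, edgeR 4.0.16, DESeq2 1.42.0 and, chosen after seeing the data, libraries A119, A120 and A126 left out.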

Additional observations from a re-analysis of the deposited data

How the results depend on the processing

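Over 23 alternatives no difference of a tested member changed direction where it was called, and calls changed for GBP1 with irradiation and GBP2 with ruxolitinib alone, as given above. Without the filter on low values GBP4 and GBP5 entered the fit. Then 5 members were higher with DMSO than in proliferating cells (3 with the filter) and 2 with ruxolitinib (1 with the filter). The added calls were GBP4 and GBP5 with DMSO and GBP4 with ruxolitinib, genes without a read in proliferating cells. With the filter, 33.0% and 32.6% of all tested genes were higher in these 2 comparisons. Leaving out 1 library, 4 to 5 members were lower with ruxolitinib than with DMSO. The counts over all genes were less steady. With the same total in every library, palbociclib against DMSO gave 940 higher and 5176 lower genes (2927 and 2505 as deposited), and palbociclib against ruxolitinib 847 and 4535 (2561 and 1983). For ruxolitinib against DMSO (124 higher and 384 lower), a fit of only these 2 groups called 835 and 996, DESeq2 called 200 higher, and the fit without A119, A120 and A126, chosen after seeing the data, called 738 and 924. Leaving out 1 library gave 38 (without A124) to 237 higher and 220 (without A122) to 489 lower. No paired analysis was possible because the columns carry no replicate number. Depth limits GBP4, GBP5 and IFNB1, with at most 44, 19 and 9 reads per group.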

Other observations

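Partners of the GBP proteins in inflammasomes were lower with palbociclib. Of 9 listed partners, 5 were tested, and 2 were higher and none lower in irradiated cells with DMSO than in proliferating cells. The shares over all tested genes were 33.0% and 39.3%. CASP1, the caspase that matures interleukin 1 beta, had means of 265.8 normalized counts in proliferating cells, 263.6 in the DMSO group, 77.0 under palbociclib and 138.8 under ruxolitinib. Its log2 difference against DMSO was -1.76 with palbociclib (limma adjusted p = 6.90e-09) and -0.92 with ruxolitinib (7.27e-05), so like GBP2 it was lowest with palbociclib. All 5 tested partners were lower with palbociclib than with DMSO, and 2 with ruxolitinib, where 22.3% and 3.42% of all tested genes were lower. IL1B, which encodes interleukin 1 beta, had means of 16.8, 86.8, 6.86 and 115.9, lower with palbociclib than with ruxolitinib by a log2 difference of -4.01 (adjusted p = 1.69e-06).

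Calls among the enzymes that attach and finish the lipid anchor of GBP1, GBP2 and GBP5 depended on the comparison and the scaling. All 6 listed genes were tested, and 2 were higher and 2 lower with DMSO than in proliferating cells, beside 33.0% and 39.3% of all tested genes. RCE1, the protease that trims the prenylated end, changed by -0.69 on the log2 scale (adjusted p = 0.000381). None was called with ruxolitinib, where 4.52% of all tested genes were called. Against DMSO, 1 was called higher with palbociclib and none lower, beside 26.0% and 22.3% of all tested genes. This was ICMT, the closing methyltransferase (0.38, adjusted p = 1.17e-05). With the same total in every library, 4 of the 6 were called lower with palbociclib and 1 higher.

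Relatives of the MX and GBP proteins that interferon does not induce, the dynamins, mitofusins, OPA1 and atlastins, were also read. Of 10 tested, 1 was higher and 4 were lower with DMSO than in proliferating cells, with a median log2 difference of -0.14, and the shares over all tested genes were 33.0% and 39.3%. With the same total in every library 5 were higher and 3 lower. ATL1, an atlastin that fuses membranes of the endoplasmic reticulum, rose by 0.80 (adjusted p = 7.87e-08) and ATL2 fell by 0.80 (adjusted p = 1.65e-06). Against DMSO, 4 of the 10 were higher and 1 was lower with palbociclib, beside 26.0% and 22.3% of all tested genes. With the same total in every library 1 was higher and 6 were lower. None of the 10 was called with ruxolitinib, where 4.52% of all tested genes were called.

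NF-kB targets gave another order of the inhibitors. Of 10 tested, 9 were higher with DMSO than in proliferating cells, 9 were lower with palbociclib than with DMSO and 3 with ruxolitinib. Over all tested genes these shares were 33.0%, 22.3% and 3.42%. In the direct comparison 9 of the 10 were lower with palbociclib than with ruxolitinib, with a median log2 difference of -1.11, beside 17.6% of all tested genes. Of 12 interferon gamma and IRF1 targets 6 were tested. Among the untested ones, TAP1, PSMB8, PSMB9 and HLA-DRA had at most 1 read in any group, which is not read as absence of expression. Against DMSO 4 were lower and 1 higher with palbociclib (5 and 0 with the same total in every library), and 5 were lower with ruxolitinib. CXCL10, a chemokine of that list, had means of 6.94 normalized counts in proliferating cells, 459.4 in the DMSO group, 52.7 under palbociclib and 125.5 under ruxolitinib.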
